A study of Homo sapiens with 12 samples.

Results

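The genes of myosin light chains, actins and their filament partners, 10 in all, were followed in HepG2 cells, a human liver cancer line, in which the level of thiosulfate sulfurtransferase (TST), a mitochondrial enzyme that converts cyanide to thiocyanate, had been changed. They are MYL9, MYL12A and MYL12B, which encode the regulatory light chains of non-muscle and smooth muscle myosin II, MYL6, the essential light chain, ACTB and ACTG1, the beta and gamma cytoplasmic actins, TPM1 and TPM2, tropomyosins, and TAGLN and TAGLN2, transgelins that bind actin filaments. They were chosen by name, and all 10 were found among the 57500 genes of the count files. MYL9 was chosen for its higher level with TST overexpression than in WT, so its values are given as a description with no test in every comparison, since each uses the WT or the overTST libraries of that choice. The other 9 genes are its family and its partners.

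The 12 libraries form 3 groups of 4 replicates: WT cells, a knockdown line (shTST) and an overexpressing line (overTST), all kept in normal culture medium containing glycine. Silencing used a lentiviral TST shRNA plasmid, and overexpression a lentiviral vector in which the CMV promoter drives a codon-optimized TST coding sequence. Transduced cells were selected with blasticidin. The WT cells are named as wild-type controls, and no empty-vector or scrambled-shRNA group is among these samples, so transduction and selection cannot be told apart from the change in TST. Whether the lines are pools or single clones is not given in the sources used here.

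Myosin II is a motor made of heavy chains that each carry an essential and a regulatory light chain. Kinases such as ROCK and myosin light chain kinase phosphorylate the regulatory chain, which switches on contraction, and a phosphatase built around MYPT subunits reverses it. Tropomyosins lie along actin filaments, and transgelins, relatives of the calponins, bind and crosslink them. In liver cells this machinery shapes the cell cortex and the bile canaliculi, and MYL9, TAGLN and TPM2 are best known from smooth muscle and from contractile stromal cells.

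The members of a family are close in sequence, which bears on how reads can be assigned to them, so the first 90 coding bases of the light chains and of the actins are shown from GENCODE 29 transcripts. Capitals mark bases that differ from MYL9 in the aligned light chains, and bases of ACTG1 that differ from ACTB.
MYL9: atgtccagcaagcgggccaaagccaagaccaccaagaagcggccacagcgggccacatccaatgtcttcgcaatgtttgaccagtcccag
MYL12A: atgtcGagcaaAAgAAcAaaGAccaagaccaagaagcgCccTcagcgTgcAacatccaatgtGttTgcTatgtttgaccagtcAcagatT
MYL12B: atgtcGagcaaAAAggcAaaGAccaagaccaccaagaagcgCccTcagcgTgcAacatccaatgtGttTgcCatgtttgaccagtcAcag
ACTB: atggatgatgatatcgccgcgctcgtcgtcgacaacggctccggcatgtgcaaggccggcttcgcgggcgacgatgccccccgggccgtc
ACTG1: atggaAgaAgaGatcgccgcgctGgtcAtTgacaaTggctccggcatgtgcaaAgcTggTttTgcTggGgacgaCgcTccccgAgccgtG
In these 90 bases MYL12A differs from MYL9 at 17 aligned positions and MYL12B at 15, and the coding sequence of MYL12A is 516 bases long against 519 in MYL9 and MYL12B. Over the whole coding sequence MYL9 is 79.1% identical to MYL12A and 80.5% to MYL12B, whereas MYL12A and MYL12B are 95.7% identical and differ at 22 bases. The actins are 91.2% identical and differ at 99 bases. TPM1 and TPM2 are 79.0% identical, and TAGLN and TAGLN2 72.0%.

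No 50-base window of the coding sequence of MYL9, TAGLN, TPM1 or TPM2 occurred in the transcripts of another gene. For MYL12A 28.5% of such windows did, for MYL12B 23.6%, for TAGLN2 26.3%, for ACTB 17.8%, for MYL6 10.1% and for ACTG1 7.32%. With 100-base windows the shares were 4.79% for TAGLN2, 0.29% for ACTB and 0 for the other 8 genes. The read length and the rule for reads that map to several places are not given in the sources used here, so the split between MYL12A and MYL12B, and between each of these genes and its pseudogenes, is uncertain. Several genes also share ground with others on GRCh38. MYL9 (chr20:36541484-36551447, plus strand) overlaps the antisense gene DLGAP4-AS1, MYL12A (chr18:3247481-3256236, plus strand) the antisense gene MYL12-AS1, TAGLN (chr11:117199321-117204782, plus strand) the opposite-strand gene PCSK7, and TPM1 (chr15:63042632-63071915, plus strand) TPM1-AS. MYL6 (chr12:56158161-56163496, plus strand) overlaps MYL6B on its own strand and SMARCC2 on the other. MYL12B lies at chr18:3261909-3278284 (plus strand), TAGLN2 at chr1:159918107-159925732, TPM2 at chr9:35681992-35691020, ACTB at chr7:5527151-5563784 and ACTG1 at chr17:81509971-81523847, the last 4 on the minus strand. ACTB overlaps an antisense gene and a processed pseudogene on the opposite strand, and ACTG1 an antisense gene and another opposite-strand gene. Whether counting used strand is not given in the sources used here, and without it the reads of a gene and its antisense partner cannot be told apart.

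The 12 libraries held 22911380 to 45120508 counts on genes, with the lowest totals in overTST (22911380 to 27414142). Counts on mitochondrially encoded genes made up 6.91 to 11.98% of the total in WT, 6.84 to 8.65% in shTST and 10.8 to 11.7% in overTST. The targeted gene TST was at 49.0 ± 2.59 CPM (counts scaled to the TMM library size) in WT, 34.1 ± 1.62 in shTST and 57.9 ± 4.90 in overTST (SD, n = 4 each), where counts of the codon-optimized transgene need not be included. The summed level of 8 hepatocyte marker genes was 21377 to 28547 CPM in every library, while single markers differed. At an edgeR adjusted p of 0.05 or less, 4 were higher and 2 lower in shTST than in WT (6.69% and 9.40% of all genes). In overTST, without a length correction, 2 were higher and 1 lower (15.7% and 18.2% of all genes). The summed level of 6 smooth muscle markers was 1.12 to 1.87 CPM in WT, 1.45 to 2.08 in shTST and 1.58 to 2.80 in overTST, with MYOCD at 0 in all 12 libraries. That of 7 fibroblast and stellate cell markers was 21.6 to 25.2 CPM in WT, 17.0 to 19.4 in shTST and 16.0 to 17.9 in overTST, with LUM at 0 in all 12 libraries, and most of it came from PDGFRB. That of 5 endothelial and blood cell markers was 3.94 to 4.80 CPM in WT, 3.55 to 3.97 in shTST and 4.87 to 6.41 in overTST. In such bulk samples fewer cells of a type and less RNA per cell cannot be told apart.

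MYL9 stood out among the regulatory light chains. Its CPM were 23.7, 24.7, 24.5 and 22.9 in WT, 25.2, 27.7, 25.8 and 25.3 in shTST, and 40.8, 45.6, 41.1 and 44.0 in overTST. The lowest overTST library thus lay above every other library by a wide margin, and the shTST libraries lay just above the WT libraries without overlap. The means were 24.0 ± 0.81 CPM in WT, 26.0 ± 1.18 in shTST and 42.9 ± 2.29 in overTST (SD, n = 4 each). In overTST the fitted log2 fold change was 0.84 (1.79-fold), rank 115 of the 14421 genes tested when ordered from the highest. Between shTST and overTST it was −0.72, and −0.65 after a correction for gene length and −0.61 after one for GC content. Between shTST and WT it was 0.12, and 0.19 after a correction for GC content. These values chose the gene, or use the libraries that chose it, and they are not tested.

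**Figure D1:**
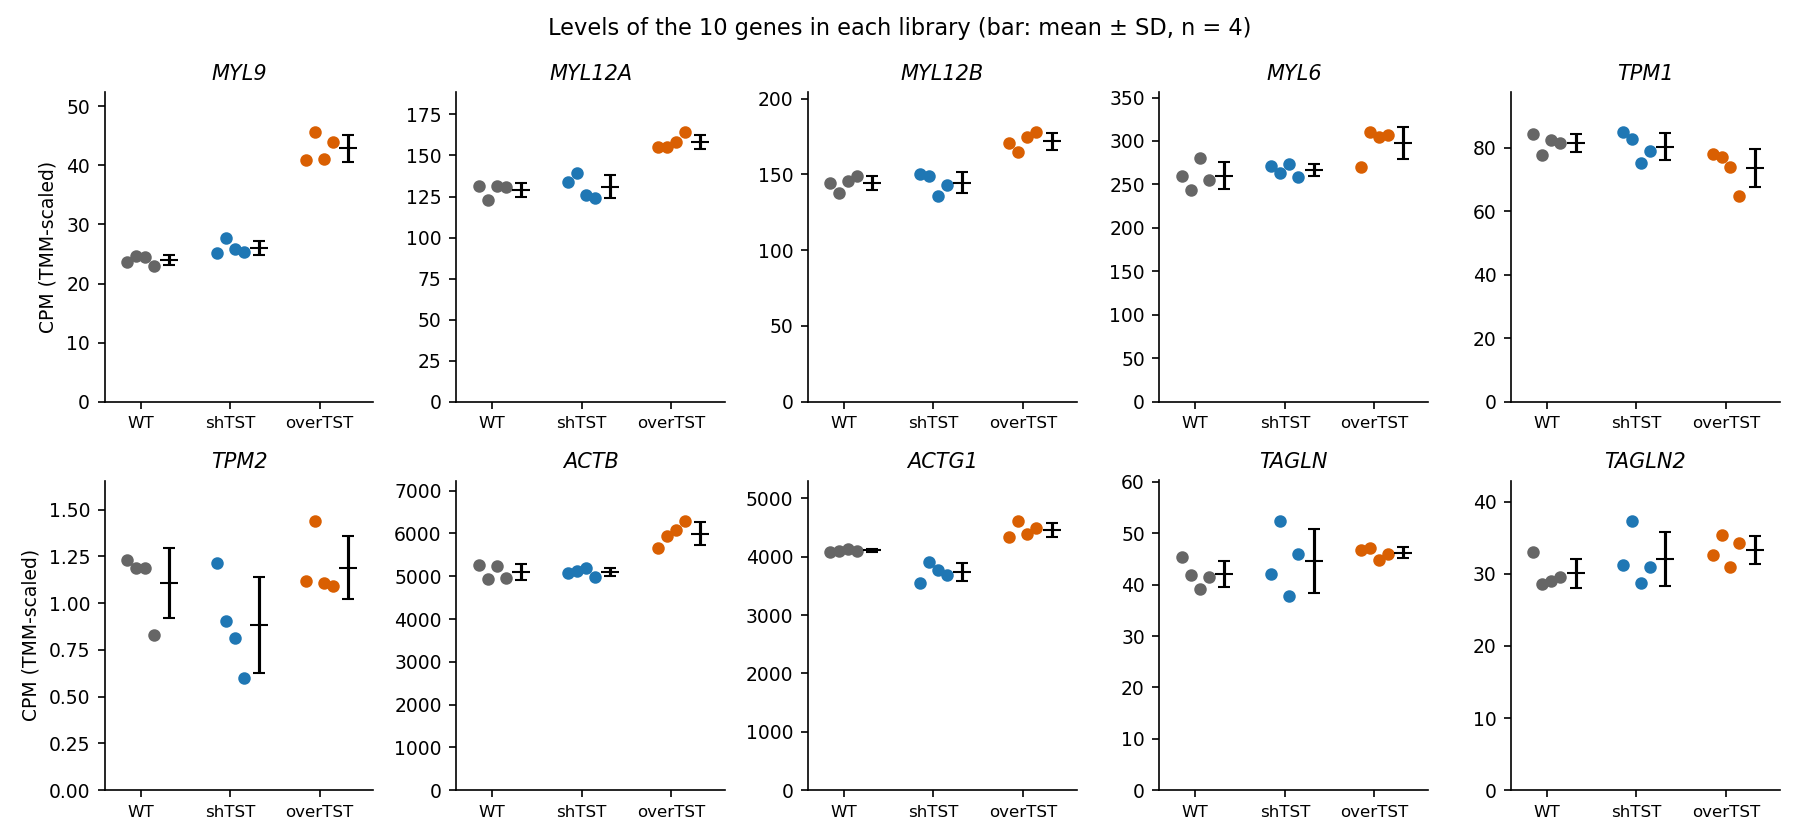
CPM of each gene (linear axis from 0) in the 4 libraries of WT, shTST and overTST, with 1 point a library and the mean ± SD beside them. The MYL9 points of overTST sit at 40.8 to 45.6 CPM, above every WT and shTST library, and MYL12A, MYL12B and both actins are also above WT in every overTST library. The share of all genes without overlap was not counted, and ACTG1 did not pass against WT with edgeR.

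The other regulatory light chains, MYL12A and MYL12B, rose with TST overexpression, by less than the difference in MYL9, and MYL12B lost its call after a correction for gene length. MYL12A had 131, 123, 131 and 131 CPM in WT, 134, 139, 126 and 124 in shTST, and 155, 155, 158 and 164 in overTST, so its overTST values did not overlap either other group. Its log2 fold change in overTST against WT was 0.29 (standard error 0.048, edgeR adjusted p = 4.9e-05). MYL12B had 144, 138, 146 and 149 CPM in WT, 150.1, 149, 135 and 143 in shTST, and 170.3, 165, 175 and 178 in overTST, again with no overlap. Its log2 fold change was 0.25 (standard error 0.048, edgeR adjusted p = 2.4e-04), and 0.098 after the length correction (edgeR adjusted p = 0.113). In shTST they were at 0.020 and 0.0022 on the log2 scale, with standard errors of 0.046 and 0.044. Since MYL12A and MYL12B share windows with each other and with the same pseudogenes, their values are not fully separate measurements.

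The 3 regulatory light chains together had 297 ± 8.11 CPM in WT, 301 ± 13.7 in shTST and 373 ± 9.34 in overTST (SD, n = 4 each). Per kilobase of merged exonic length, the length given in the files, MYL9 made up 6.53 ± 0.38% of the 3 in WT, 7.01 ± 0.31% in shTST and 9.42 ± 0.58% in overTST (SD, n = 4 each). MYL12A and MYL12B therefore remained the main regulatory chains in every group. With the length of the principal transcripts in place of the merged length, MYL9's share was 3.08%, 3.31% and 4.49% in WT, shTST and overTST. By either length the share uses the MYL9 values that chose the gene, so it is a description with no test.

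MYL6, the essential light chain that pairs with all 3, rose as well, but with overlap. It had 260.1, 244, 281 and 255 CPM in WT, 271, 263, 274 and 258 in shTST, and 270.5, 309.9, 304 and 307 in overTST. The overTST library at 270.5 lay below the highest WT library, while the other 3 lay above all of WT. The log2 fold change in overTST was 0.20 (standard error 0.054, edgeR adjusted p = 0.00639), and in shTST it was 0.037 (standard error 0.045).

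ACTB and ACTG1 had the highest levels per kilobase of the 10 genes. ACTB rose with TST overexpression, and the call on ACTG1 against WT depended on the method. ACTB had 5263, 4925, 5247 and 4964 CPM in WT, 5074, 5122, 5196 and 4981 in shTST, and 5669, 5931, 6089.8 and 6293 in overTST. Every overTST value exceeded every WT and shTST value, and WT and shTST overlapped fully. The log2 fold change in overTST was 0.23 (standard error 0.058, edgeR adjusted p = 0.00312), whereas in shTST it was −0.0014 (standard error 0.052). ACTG1 had 4087, 4102, 4141 and 4102 CPM in WT, 3551, 3919, 3781 and 3684 in shTST, and 4342, 4615, 4383 and 4497 in overTST. Its groups formed 3 separate ranges, lowest in shTST and highest in overTST. Against WT neither difference passed the threshold with edgeR, at −0.14 in shTST (standard error 0.051, edgeR adjusted p = 0.0713) and 0.12 in overTST (standard error 0.054, edgeR adjusted p = 0.0960). Between shTST and overTST, ACTG1 differed by −0.26 (standard error 0.048, edgeR adjusted p = 2.4e-04).

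In shTST ACTG1 passed as lower with DESeq2 (adjusted p = 0.00481), with limma-voom (0.0101) and with edgeR's robust dispersions (0.0349), and over all alternatives its adjusted p ran from 0.00481 to 0.244. In overTST it passed as higher with DESeq2 (adjusted p = 0.00776), with limma-voom (0.0177) and without mitochondrially encoded genes (0.0406), and over all alternatives its log2 fold change ran from 0.047 to 0.15 and its adjusted p from 0.00776 to 0.552. Together the actins had 9208 ± 188 CPM in WT, 8827 ± 212 in shTST and 10455 ± 325 in overTST (SD, n = 4 each), which is 0.921, 0.883 and 1.05% of the normalized counts. ACTB's share of both, per kilobase, was 53.1 ± 0.85% in WT, 55.5 ± 0.91% in shTST and 55.1 ± 1.07% in overTST.

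**Figure D2:**
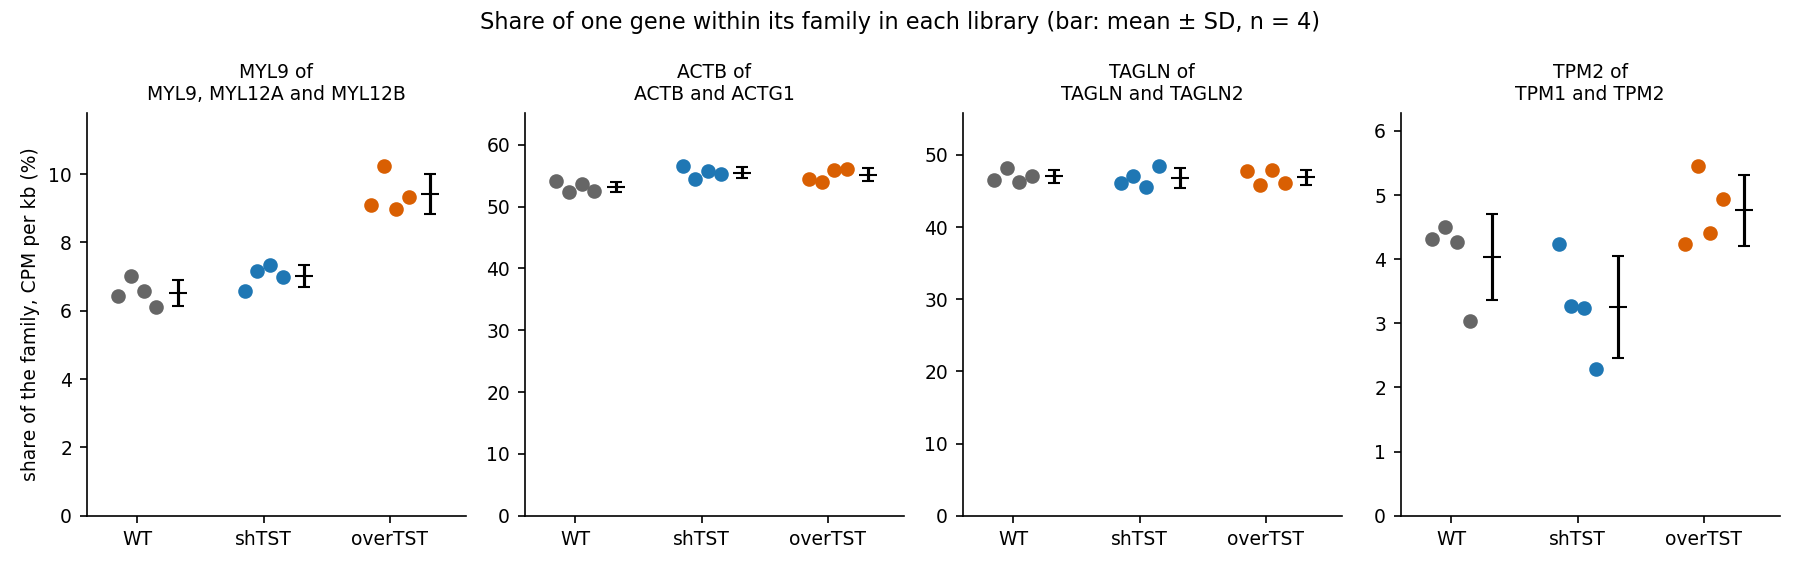
Share of MYL9, ACTB, TAGLN and TPM2 within their families, in percent of CPM per kilobase of merged exonic length (axis from 0), with 1 point a library and the mean ± SD beside them. MYL9 goes from 6.53% in WT to 9.42% in overTST, the libraries that chose it, and TAGLN stays between 46.8 and 47.0% in the group means.

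Serum response factor, with its MRTF cofactors, is a textbook regulator of actin and contractile genes and binds the CArG box. In RefSeq promoters of GRCh38.p14, from 250 bases before to 50 after the start, 7 of the 10 genes had an entry and ACTG1 alone of the 7 held a CArG box, on both strands searched. The box lies 94 to 85 bases before the start and is shown in capitals in 80 bases around it (chr17:81512849-81512928, minus strand).
ACTG1: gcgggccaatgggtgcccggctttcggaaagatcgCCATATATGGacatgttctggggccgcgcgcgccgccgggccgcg
Of 27305 genes with a promoter entry, 438 (1.60%) held such a box in at least 1 promoter, and of 35116 promoters 454 (1.29%) did. A match is a description of the letters and shows no binding, and MYL9, TAGLN and ACTB had no entry.

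Neither tropomyosin passed in any of the reported edgeR fits. TPM1 had 84.2, 77.6, 82.3 and 81.5 CPM in WT, 84.8, 82.6, 75.0 and 79.0 in shTST, and 78.1, 76.97, 74.0 and 64.9 in overTST. The overTST values tended low but the highest lay inside the WT range, and the log2 fold change was −0.15 (standard error 0.057, edgeR adjusted p = 0.0517). With edgeR, TPM1 passed as lower without WT replicate 2 (adjusted p = 0.0324) or overTST replicate 1 (0.0180), and with robust dispersions (0.0477). It also passed as lower in a fit of all 12 libraries (0.041), without a filter on low counts (0.0274) and with the replicate block (0.0271). After a correction for gene length, however, the log2 fold change was 0.030. In shTST against overTST it passed as higher without shTST replicate 3 (edgeR adjusted p = 0.0393) or overTST replicate 1 (0.0327), and with the block (0.0470). TPM2 was near the lower end of what was measured, with 27 to 54 counts per library in WT, 18 to 34 in shTST and 24 to 34 in overTST, and means of 1.11 ± 0.19, 0.88 ± 0.26 and 1.19 ± 0.17 CPM (SD, n = 4 each). Its log2 fold changes were −0.34 in shTST and 0.097 in overTST, with standard errors of 0.24 and 0.22, and at this depth no difference was detectable.

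Neither transgelin passed in any of the reported edgeR fits. TAGLN ranged from 39.3 to 45.5 CPM in WT, from 37.8 to 52.4 in shTST and from 44.8 to 47.2 in overTST, with a median of 41.7, 44.0 and 46.4. The overTST values lay in a narrow range near and above the top of WT, and the shTST values spread beyond WT on both sides. TAGLN's log2 fold change was 0.084 in shTST (standard error 0.074) and 0.14 in overTST (standard error 0.058, edgeR adjusted p = 0.0718). TAGLN2 ranged from 28.6 to 33.1 CPM in WT, from 28.8 to 37.4 in shTST and from 31.0 to 35.4 in overTST, with log2 fold changes of 0.094 (standard error 0.071) and 0.15 (standard error 0.067, edgeR adjusted p = 0.0922). In both genes the highest shTST library was replicate 2. Without WT replicate 1, which had the highest WT values of both, TAGLN and TAGLN2 passed as higher in overTST (edgeR adjusted p = 0.0325 and 0.0350), as they did with upper-quartile scaling (0.0299 and 0.0446). TAGLN also passed with the replicate number as a block (edgeR adjusted p = 0.0498). Over all alternatives TAGLN ran from 0.10 to 0.18, with adjusted p up to 0.275, and TAGLN2 from 0.042, after the length correction, to 0.20, with adjusted p up to 0.671.

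**Figure D3:**
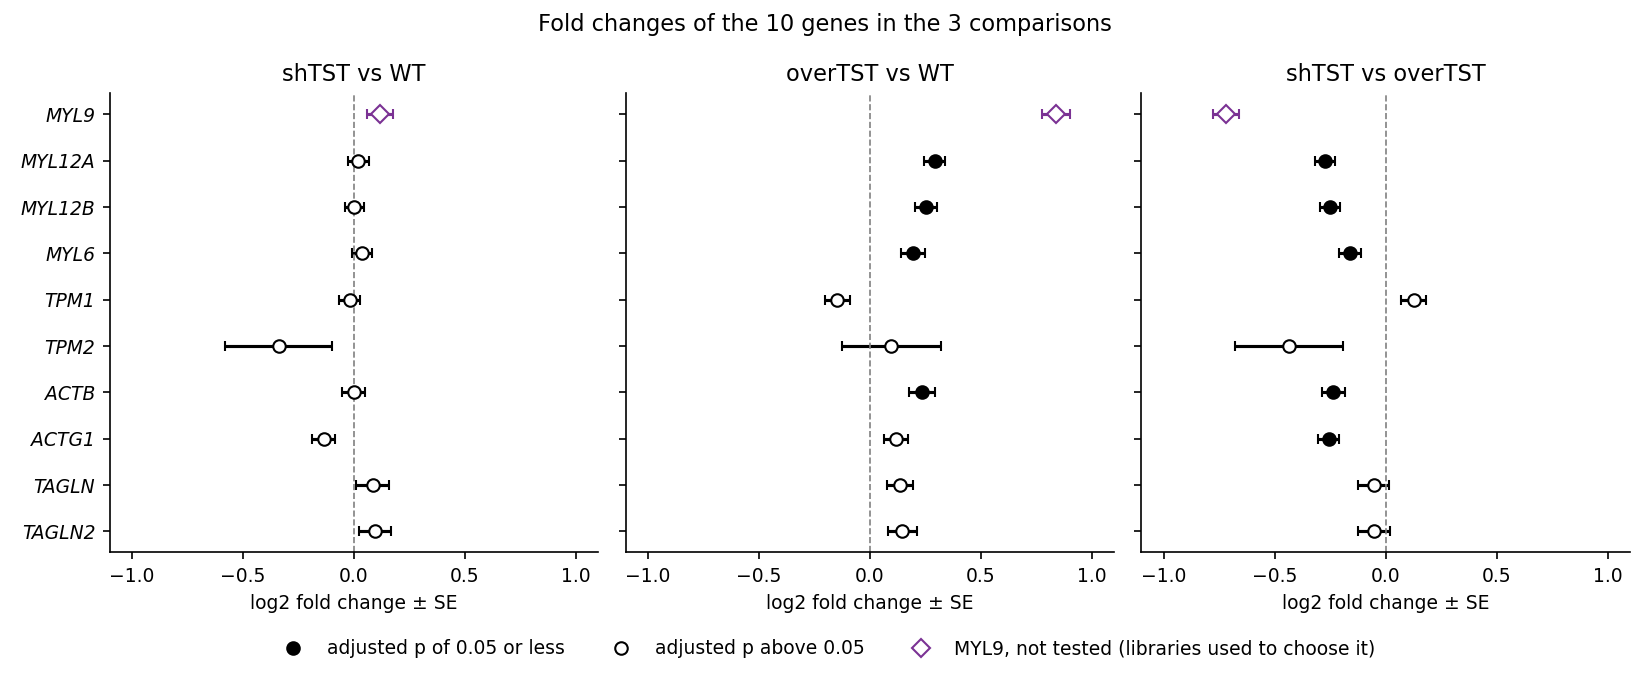
Log2 fold change (x axis) with its standard error for the 10 genes in the 3 comparisons, with filled points where the adjusted p was 0.05 or less and open diamonds for MYL9, which was not tested. With overTST, MYL12A, MYL12B, MYL6 and ACTB are filled on the right of 0, and no gene is filled in shTST against WT.

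Counted together, none of the 9 genes other than MYL9 passed an adjusted p of 0.05 in shTST against WT with edgeR, 1 of them (ACTG1) had an unadjusted p of 0.05 or less, and DESeq2 and limma-voom each called 1. Over all 14584 genes tested, 6.69% were higher and 9.40% lower in shTST. The median log2 fold change of the 9 genes was 0.0022, against 0.0040 over all genes. In overTST against WT, 4 of the 9 genes other than MYL9 were higher and none lower with edgeR (TPM1 was lower at an unadjusted p of 0.05 or less, and DESeq2 and limma-voom each called 5 higher and none lower), where 15.7% of the 14421 genes tested were higher and 18.2% lower. The median of the 9 genes was 0.15, against 0.0019 over all genes. Leaving out each library in turn gave 4 to 6 of 9, and the calls over all genes moved as well. They were 4262 of 14568 without WT replicate 2 and 5263 of 14664 without overTST replicate 1. In shTST against overTST, 5 of the 9 were lower (MYL6, MYL12A, MYL12B, ACTB and ACTG1) and none higher with edgeR, DESeq2 or limma-voom, and TPM1 was higher at an unadjusted p of 0.05 or less, with 16.9% of 14883 genes higher and 16.1% lower. The comparisons share libraries, so they are not independent of each other. The share of all genes whose groups did not overlap was not counted, so the separate ranges given above for single genes are descriptions. With upper-quartile scaling the split over all genes moved to 8.80% higher and 7.89% lower in shTST, and to 18.7% higher and 15.9% lower in overTST.

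Gene length moved with the differences in overTST. The median log2 fold change over all genes tested was 0.21 for genes up to 1 kb, 0.18 from 1 to 2 kb, 0.072 from 2 to 4 kb, −0.052 from 4 to 8 kb and −0.16 over 8 kb, and in shTST it ran only from 0.057 to −0.020. By merged exonic length, MYL9 (2821 bases), MYL12A (3245), ACTB (3256), ACTG1 (2976), TAGLN (3917) and TAGLN2 (2487) lie in the class from 2 to 4 kb, where 22.2% of genes were higher and 6.97% lower. MYL12B (1761) is shorter, in the class from 1 to 2 kb, where 31.7% were higher and 2.45% lower. MYL6 (4609) and TPM2 (4047) are longer, in the class from 4 to 8 kb, where 10.8% were higher and 22.2% lower. TPM1 (12492) is in the longest class, where 6.75% were higher and 41.6% lower. After each library was corrected for its trend with length, MYL12A (0.24, edgeR adjusted p = 2.7e-04), MYL6 (0.21, 0.00345) and ACTB (0.18, 0.0184) still passed as higher in overTST. MYL12B did not (0.098, edgeR adjusted p = 0.113), MYL9 was at 0.76, and TAGLN2 at 0.042. The correction used the merged length. The median principal transcript is shorter for MYL6 (827 bases), MYL12A (975.5), MYL12B (1064), ACTB (1812) and ACTG1 (1960). It is also shorter for TAGLN (1227), TAGLN2 (1156.5), TPM1 (1049) and TPM2 (1291), and the same for MYL9. MYL12A and MYL12B are thus close by principal length but not by the merged length (3245 and 1761) that the correction used. A correction by principal length was not run. Why the differences follow length was not tested.

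**Figure D4:**
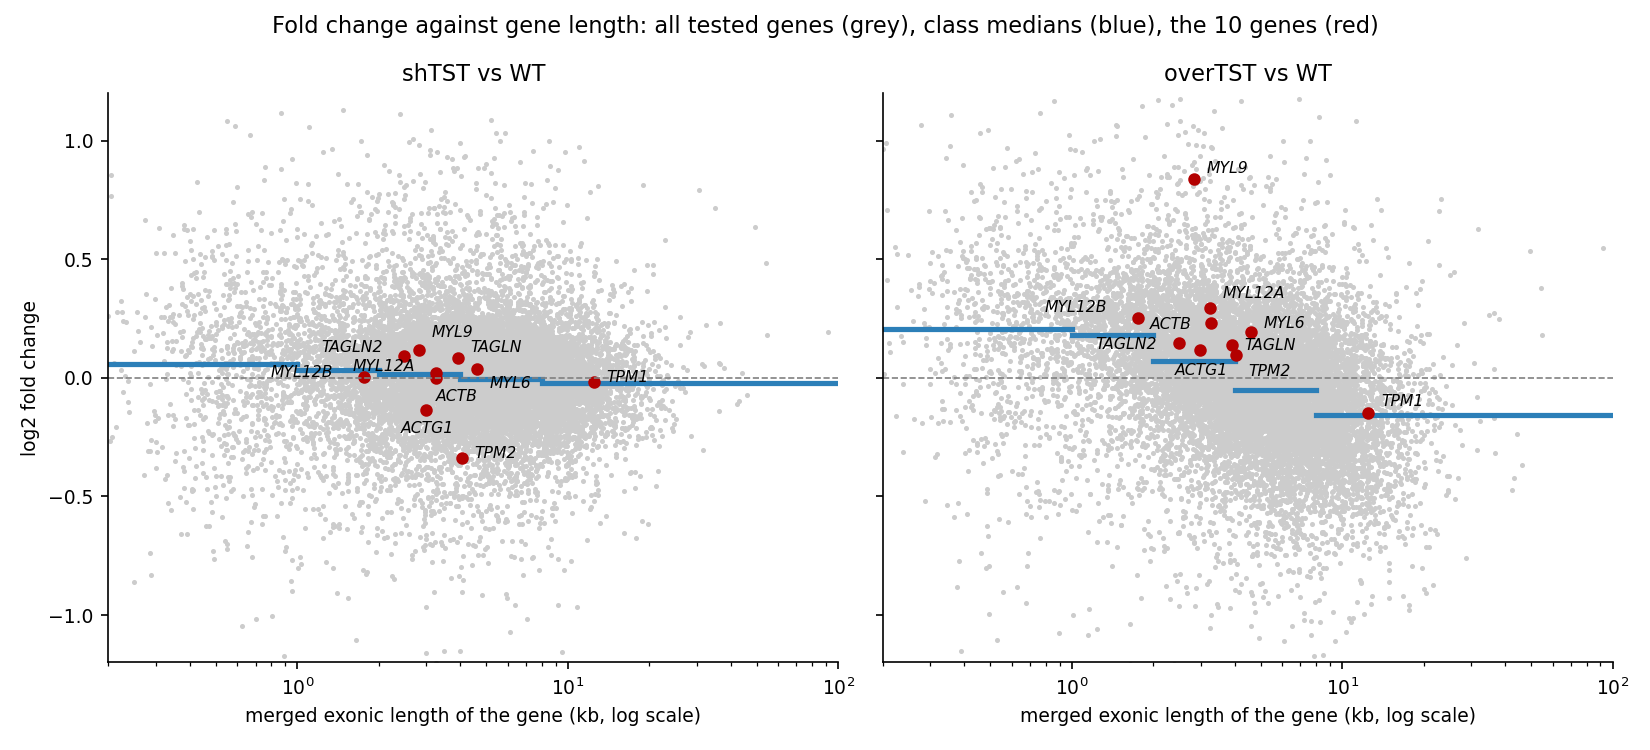
Log2 fold change against merged exonic length (kb, log axis) in shTST and overTST against WT, with all tested genes in grey, the median of each length class as a blue line and the 10 genes in red. In overTST the medians fall from 0.21 to −0.16 with length and MYL9 lies far above its class, while 13 genes in the shTST panel and 43 in the overTST panel fall beyond the axis.

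Levels between genes were compared per kilobase only. By the merged exonic length, the order in WT was ACTB (1566 ± 55.3 CPM per kb), ACTG1 (1380.3 ± 7.74), MYL12B (81.9 ± 2.66), MYL6 (56.4 ± 3.34), MYL12A (39.8 ± 1.32), TAGLN2 (12.1 ± 0.83), TAGLN (10.7 ± 0.66), MYL9 (8.49 ± 0.29), TPM1 (6.52 ± 0.22) and TPM2 (0.27 ± 0.046), as mean ± SD of 4. TAGLN2 and TAGLN did not differ beyond their spread, and every other pair of neighbours did. In overTST MYL9 stood at 15.2 ± 0.81 CPM per kb, above TAGLN2 (13.4 ± 0.78) and TAGLN (11.8 ± 0.27), whereas in WT it stood below them. This order rests on the length used. By the principal transcripts MYL6 took the third place (315 ± 18.6 CPM per kb in WT), MYL12B and MYL12A followed without a difference beyond their spread (136 ± 4.40 and 132 ± 4.40), TPM1 rose to the sixth place (77.6 ± 2.65), and MYL9 stayed at the ninth in WT and overTST.

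The genes whose log2 CPM followed MYL9 most closely over the 12 libraries, out of 11530 genes whose mean log2 CPM reached 1, were ATP6V0E1 (Pearson r = 0.98), AIFM2 (0.97), CNN2 (0.97), PHLDA1 (0.97) and RAC3 (0.97). ATP6V0E1 encodes a subunit of the vacuolar proton pump and CNN2 is a calponin. The 12 libraries fall into groups that differ in MYL9, so r mostly reflects the group means, and with the group means removed it was 0.29, 0.40, 0.68, 0.58 and 0.12. Among the members, MYL12A had r = 0.94 with MYL9 (0.23 with the group means removed), ACTB 0.93 (0.28), MYL12B 0.90 (−0.19), MYL6 0.81 (0.32) and ACTG1 0.75 (0.82), whereas TPM1 had −0.67 (−0.17). TAGLN and TAGLN2 followed each other closely (r = 0.90, and 0.87 with the group means removed), as did MYL12A and MYL12B (0.97 and 0.81). These are descriptions over 12 libraries that share scaling, and the last pair shares sequence.

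Lists of the genes that myosin light chains work with were compiled with earlier results of these data known, and their counts are read beside the shares of all genes called given above. Those shares are without the length correction, so list counts after that correction have no matching share beside them. Among 6 heavy chains and other light chains, none passed in shTST, where MYH9, the main non-muscle heavy chain, was at −0.12 (edgeR adjusted p = 0.115) and MYH14 at −0.095 (0.165), the 2 genes with an unadjusted p of 0.05 or less. In overTST, 1 rose and 2 fell. MYL6B, an essential light chain that overlaps MYL6, rose (0.28, edgeR adjusted p = 0.00267), and the non-muscle heavy chains MYH10 (−0.22, 0.00205) and MYH14 (−0.20, 0.00261) fell. MYH10 went from 301 ± 11.6 to 258 ± 18.3 CPM (SD, n = 4 each). After the length correction neither heavy chain passed (edgeR adjusted p = 0.139 for MYH10 and 0.419 for MYH14).

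Of the 14 tested genes that set light chain phosphorylation, such as kinases and phosphatase subunits, 2 fell and none rose in shTST with edgeR (1 was higher at an unadjusted p of 0.05 or less), with a median log2 fold change of −0.053. These were PPP1R12C, a MYPT-family subunit (−0.27, edgeR adjusted p = 0.00933), and RHOB, a small GTPase (−0.21, 0.0103). In overTST, 3 rose and 7 fell, with a median of −0.093. The kinase ROCK2 fell from 219 ± 13.1 to 163 ± 10.4 CPM (SD, n = 4 each, log2 fold change −0.43, edgeR adjusted p = 2.7e-06). PPP1R14B, a phosphatase inhibitor, rose from 165 ± 9.90 to 221 ± 13.7 CPM (0.42, edgeR adjusted p = 3.0e-06). PPP1R12B, another MYPT-family subunit of low level, fell (−0.64, edgeR adjusted p = 0.00833), and lost the call after the length correction (−0.42, 0.0839). After the length correction 3 rose and 2 fell, and ROCK2 was at −0.28 (edgeR adjusted p = 9.0e-05).

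Among 10 tested actins, tropomyosins, calponins and tropomodulins beyond the 10 genes, 1 rose and 1 fell in shTST. TPM4, another tropomyosin, rose (0.14, edgeR adjusted p = 0.0304), and TAGLN3, a transgelin at 25 to 45 counts in WT and 8 to 21 in shTST, fell (−0.83, 0.0409). Leaving out 1 library lost the call of TPM4 in 5 of 8 cases, with adjusted p up to 0.0808, and that of TAGLN3 in 7 of 8, with adjusted p up to 0.146, and both calls were lost with no filter on low counts (0.0716 and 0.0563). In overTST 3 rose and none fell with edgeR, where 2 were lower at an unadjusted p of 0.05 or less. CNN2 rose from 333 ± 5.46 to 384 ± 7.99 CPM (SD, n = 4 each, 0.20, edgeR adjusted p = 0.00112). CNN1, the smooth muscle calponin, rose (0.88, edgeR adjusted p = 0.0119) at a level of 0.69 ± 0.22 CPM in WT and 1.27 ± 0.31 in overTST, and lost the call without WT replicate 2 (0.0546) or without overTST replicate 2 (0.0697).

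Of 26 genes of actin assembly and turnover, 3 rose and 4 fell in shTST (median 0.0046), and 9 rose and 2 fell in overTST (median 0.068). In shTST, COTL1, an actin-binding protein of the cofilin fold, fell from 71.0 ± 5.57 to 49.4 ± 2.25 CPM (−0.52, edgeR adjusted p = 3.6e-06), and GSN, gelsolin, which severs filaments, rose (0.32, 0.00222). In overTST, ARPC3, a subunit of the Arp2/3 complex, rose (0.36, edgeR adjusted p = 3.1e-05), as did TMSB10, which sequesters actin monomers (0.35, 8.8e-05). With the length correction 10 rose and 3 fell in overTST.

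Of 17 tested crosslinkers and adhesion links, 2 rose and 8 fell in shTST (median −0.13), and 3 rose and 7 fell in overTST (median −0.11). FSCN1, fascin, which bundles filaments, rose in both, from 294 ± 9.93 CPM in WT to 367 ± 20.7 in shTST (0.32, edgeR adjusted p = 7.7e-05) and 460 ± 45.5 in overTST (0.65, 2.4e-08). ZYX, zyxin of focal adhesions, fell in shTST (−0.36, edgeR adjusted p = 2.3e-04). After the length correction 3 rose and 5 fell in overTST, with a median of −0.030.

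Of 13 tested genes of the SRF and MRTF list, which holds these factors and other targets, 1 rose and 6 fell in shTST (median −0.15), and 2 rose and 4 fell in overTST (median −0.11). THBS1, thrombospondin, rose in shTST (0.36, edgeR adjusted p = 3.7e-04) and fell in overTST (−0.50, 9.4e-06). ANKRD1 rose in overTST from 32.5 ± 8.65 to 54.5 ± 4.83 CPM (0.73, edgeR adjusted p = 1.8e-05). After the length correction 2 rose and 3 fell in overTST (median −0.055), and 2 rose and 6 fell in shTST (median −0.16).

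**Figure D5:**
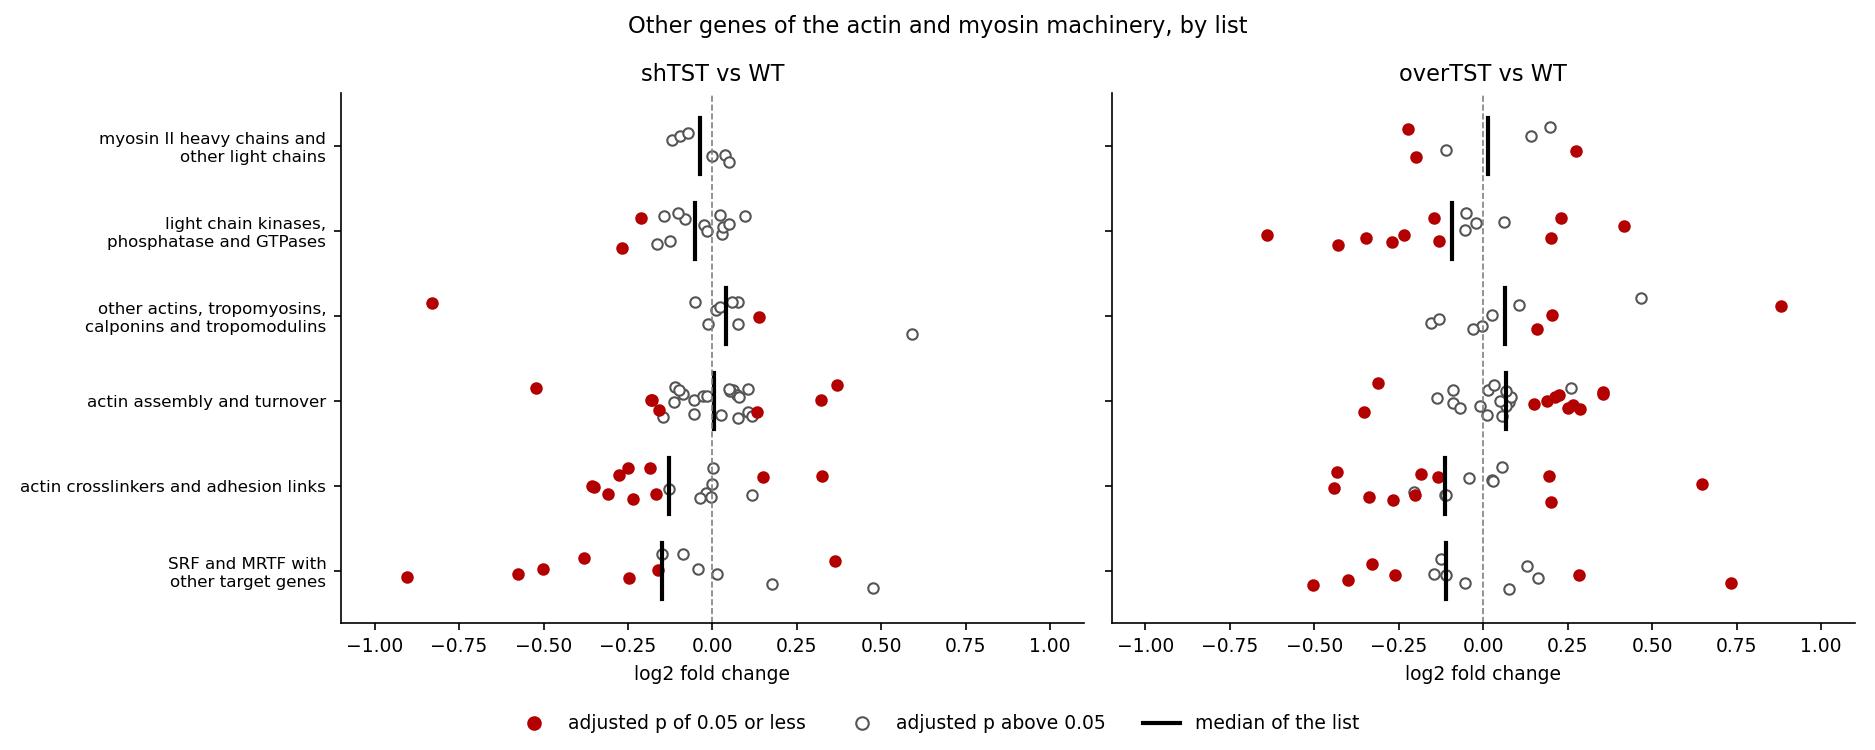
Log2 fold change (x axis) of each tested gene in 6 lists of actin and myosin genes, in shTST and in overTST against WT, with filled points at an adjusted p of 0.05 or less and a black bar at the median of each list. Without a length correction, crosslinkers and adhesion links lie mostly to the left of 0 in both panels (medians −0.13 and −0.11), and assembly genes lie to both sides.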

How the data were processed

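RNA-seq counts of 12 HepG2 libraries were used. The authors deposited whole-number counts per Ensembl gene, not normalized; per the submitters' processing notes, which list Trimmomatic 0.36, STAR 2.5.2b, featureCounts and Subread 1.5.2, on GRCh38. Gene names matched for 56410 of 57500 identifiers.

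The WT comparisons each used only their 8 libraries, and shTST against overTST all 12, in edgeR 4.0.16 in R 4.3.3 (filterByExpr, TMM, quasi-likelihood F test, Benjamini-Hochberg adjustment over all genes tested, threshold 0.05). A standard error was taken as the size of the log2 fold change over root F. CPM used TMM sizes over the 12 libraries, and log2 CPM a prior count of 2. All 10 genes passed the filter in every fit. Alternatives used DESeq2 1.42.0 and limma 3.58.1, other scalings and filters, lowess corrections (span 0.3) for exonic length and GC content, the replicate number as a block, and leaving out each library. Groups and numbers came from the labels. The replicates are stated to be independent, without saying what each number shares. Counts per library set the counting error, and the tests measure the spread between libraries. The fits were tested on simulated counts.

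MYL9 was also left out of the tests in shTST against WT, a change from the planned count of all 10 genes made after its values were seen, since the WT libraries served to choose it. The 10 genes and all lists were chosen with earlier results of these data known. Beyond the 10 genes, a list gene was named if it passed with a change of at least 1.5-fold or had one of the 2 smallest p values of its list in a comparison with WT; MYL6B was added after its value was seen. Some genes that this rule names are not reported here. The lists were light chain partners, regulators, related filament genes, assembly genes, crosslinkers, SRF targets, and markers of hepatocytes, fibroblasts, smooth muscle, and endothelial and blood cells. Coding sequences came from GENCODE 29 and promoters from RefSeq.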

Additional observations from a re-analysis of the deposited data

Results flagged for a closer look

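In 5 cases a value stood apart from the other 3 libraries of its group by Dixon's test of the gap to the nearest library over the group's range. These arose in 42 groups examined, of which chance flags about 5%, and groups of 1 gene share libraries. MYL6 in overTST replicate 1 was at 270.5 CPM, with the other 3 libraries at 304 to 309.9, and it is the overTST library that overlaps WT. MYL12A in WT replicate 2, the library with the most counts, was at 122.7 CPM, with the others at 130.9 to 131.4. TPM2 was at 0.828 CPM in WT replicate 4, with the others at 1.19 to 1.23, and at 1.44 CPM in overTST replicate 2, with the others at 1.09 to 1.1197. The share of TPM2 in TPM1 and TPM2 per kilobase was 3.042% in WT replicate 4, with the others at 4.26 to 4.504%, which is the same library and gene. These TPM2 values rest on 24 to 54 counts a library.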

How the results depend on the processing

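The number of genes passing in shTST against WT, 0 of 9, became 1 with DESeq2, limma-voom, no filter, the length correction, leaving out mitochondrially encoded genes and robust dispersions (ACTG1, lower). It was 0 with every library left out in turn. Robust dispersions, per-kilobase levels and shares by principal transcript and list counts after the length correction were chosen after seeing the data. In overTST the count of 4 of 9 ranged from 4 to 6 with a library left out, and in shTST against overTST the count of 5 of 9 from 4 to 6. The calls over all genes moved as well. In shTST against overTST they were 4630 of 15059 without shTST replicate 3 and 5265 of 15075 without overTST replicate 1. MYL12B lost its call in both comparisons after the length correction (adjusted p = 0.113 and 0.0658), and MYL6 lost it in shTST against overTST without shTST replicate 4 (0.0561) or overTST replicate 2 (0.0557). The cause was not tested.

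Whether libraries of the same replicate number belong together is not given, and the values below do not settle it. Deviations of same-numbered libraries correlated at −0.053 to 0.080 (shTST and WT), −0.0022 to 0.054 (overTST and WT) and −0.0050 to 0.030 (shTST and overTST), and 3, 2 and 1 of 4 correlated best with their own number. With the replicate block the calls over all genes went from 2346 to 2980, from 4893 to 5166 and from 4907 to 5232. The counts of the genes other than MYL9 were then 1 of 9, 6 of 9 and 6 of 9. With the length correction as well they were 1, 3 and 5. Over all genes, 3125 of 14584 were called in that fit of shTST against WT, and the matching totals of the other comparisons are not given here. The block also put MYH9 in shTST past the threshold as lower (−0.12, adjusted p = 0.0388).

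The signs that turned belong to genes that did not pass in the reported edgeR fit of that comparison. In shTST against WT, ACTB was at 0.0012 with DESeq2 and with RLE scaling, 0.019 with upper-quartile scaling, 0.0027 with the filter above 1 CPM, 0.029 with the GC correction and 0.0037 without mitochondrially encoded genes. TPM1 was at 0.0015 with upper-quartile scaling, 0.0057 with the length correction and 0.0064 with the block added. MYL12B was at −0.0090 without a filter, −0.016 and −0.017 with the length correction alone and with the block, and −0.0054 with the GC correction, where MYL12A was at −0.011. In overTST against WT, TPM1 was at 0.030 and 0.029 with the length correction alone and with the block. In shTST against overTST these corrections put TAGLN2 at 0.039 and 0.038 and TPM1 at −0.028 and −0.027, and the GC correction put TAGLN at 0.022 and TAGLN2 at 0.021. With libraries left out in turn, shTST against WT ranged from −0.018 to 0.015 for ACTB, −0.0053 to 0.048 for MYL12A, −0.020 to 0.035 for MYL12B and −0.042 to 0.016 for TPM1, overTST against WT from −0.011 to 0.15 for TPM2, and shTST against overTST from −0.14 to 0.019 for TAGLN. Depth limits TPM2, at 18 to 54 counts a library.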
